A study of Mus musculus with 12 samples.

Results

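Lysosomal hydrolases, membrane proteins and proton pump subunits are represented by 43 genes, found by symbol in the 3 deposited tables, of 47632 genes in each table. They are 14 hydrolases, 4 activators or soluble cofactors (*Psap*, *Gm2a*, *Npc2* and *Grn*), 2 mannose 6-phosphate receptors, 8 membrane proteins and 15 V-ATPase genes. The V-ATPase genes divide into 5 of the V0 sector, 8 of the V1 sector and 2 accessory subunits. Cathepsins were not among them.

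The lysosome is the acidic organelle in which cells break down macromolecules taken up from outside or delivered by autophagy. Its soluble hydrolases are made in the endoplasmic reticulum, tagged with mannose 6-phosphate, carried from the Golgi by mannose 6-phosphate receptors, and kept active by the vacuolar H+-ATPase (V-ATPase). This proton pump joins a cytosolic V1 sector, which hydrolyses ATP, to a V0 sector in the membrane, which passes the protons. TFEB is a basic helix-loop-helix transcription factor known to bind E-boxes in the promoters of many such genes. In the absorptive cells of the colon, lysosomes also take part in turnover of membrane proteins and of material taken up from the lumen.

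RNA came from colonic epithelial cells detached with EDTA from C57/BL6 mice. *Tfeb* flox/flox animals, called WT in the sample labels, carried the floxed alleles without Cre. *Tfeb* ΔIEC animals, called KO, carried them together with a Cre transgene under the villin promoter, which is active in intestinal epithelium and leaves other cells undeleted. Each genotype had 2 animals on Day 0 (before dextran sodium sulfate, DSS; aged 10 and 12 weeks), 2 on Day 4 of the DSS experiment (12 weeks) and 2 on Day 11 (10 weeks), 12 animals in all, and the labels give 2.5% DSS, while the methods give a slightly lower concentration. By the methods, Day 4 fell within DSS feeding and Day 11 at the end of the recovery on water. The tables hold 1 pooled FPKM (fragments per kilobase of transcript, scaled for library size) per gene, genotype and day, so no value has an SD. No test was run and the authors' test results were not used. Whether a difference exceeds that between animals was therefore not assessed. How many reads stand behind a value is also unknown. Where levels are given in pairs, the first is that of the controls, *Tfeb* flox/flox, and the second that of *Tfeb* ΔIEC animals.

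*Tfeb* was at 0.901 FPKM in controls, *Tfeb* flox/flox, and at 0.185 in *Tfeb* ΔIEC animals on Day 0. On Day 4 it was at 1.08 and listed at 0, and on Day 11 at 1.18 and listed at 0. Epithelial markers were abundant in all 6 groups, where *Epcam* ranged from 1109 to 2018 FPKM. The 12 immune markers summed to between 3.02 and 9.29 FPKM per group, and the 6 stromal markers to between 2.37 and 5.38. The immune markers *Adgre1* and *S100a9* were listed at 0 in all groups. The values of Days 4 and 11 were nearly the same for most genes within each genotype, although the labels give different animals. Of all genes above 0 on both days, 14.3% (*Tfeb* flox/flox) and 10.2% (*Tfeb* ΔIEC) had identical values, while single genes differed widely. Over the lysosomal genes above 0 on both days, the median absolute log2 ratio of the levels was 0.05 for either genotype, against 1.20 (*Tfeb* flox/flox) and 0.38 (*Tfeb* ΔIEC) between Days 0 and 4. Day 11 was therefore not read as a second, independent result. Levels on different days come from tables scaled separately and are set side by side as a description.

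Of the lysosomal genes, 37 had an entry in the RefSeq promoter table (GRCm38.p6), which covers 250 bases before to 50 after each start site. *Asah1*, *Atp6v1b2*, *Atp6v1c1*, *Atp6v1g1*, *Atp6v1h* and *Npc1* had none. The E-box CACGTG, a palindrome read alike on both strands, was found in 14 of the 37 (37.8%), and in 8.09% of the 27025 genes with such an entry. The longer palindrome TCACGTGA, which contains it, was found in 8 of the 37 (21.6%) and in 1.12% of all. *Lamp1* held 4 copies of the E-box, 6 genes held 2 and 7 held 1. The sequences below end at the base before the start site, except that of *Atp6v1a*, which ends 51 bases before it, and run 5′ to 3′ on the strand of the gene with the E-box in capitals. They are shown because these promoters hold the motif while their genes differed in direction on Day 4: *Clcn7*, *Atp6v1a* and *Tmem55b* were higher in *Tfeb* ΔIEC animals, *Igf2r* was lower, and *Lamp1*, *Mcoln1* and *Atp6v0b* differed by less than 2-fold.
Clcn7, chr17:25133291-25133390, plus strand: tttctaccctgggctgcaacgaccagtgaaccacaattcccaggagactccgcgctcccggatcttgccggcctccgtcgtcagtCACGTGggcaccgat
Atp6v1a, chr16:44139310-44139409, minus strand: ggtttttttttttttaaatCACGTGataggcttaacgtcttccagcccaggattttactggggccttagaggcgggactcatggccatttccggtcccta
Tmem55b, chr14:50930850-50930949, minus strand: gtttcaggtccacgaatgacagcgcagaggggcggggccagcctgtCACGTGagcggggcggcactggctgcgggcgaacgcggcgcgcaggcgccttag
Igf2r, chr17:12769707-12769806, minus strand: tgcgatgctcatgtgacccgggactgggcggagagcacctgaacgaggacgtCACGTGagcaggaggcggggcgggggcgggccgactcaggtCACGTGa
Lamp1, chr8:13159061-13159160, plus strand: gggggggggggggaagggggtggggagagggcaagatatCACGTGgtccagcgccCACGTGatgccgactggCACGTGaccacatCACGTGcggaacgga
Mcoln1, chr8:3500419-3500518, plus strand: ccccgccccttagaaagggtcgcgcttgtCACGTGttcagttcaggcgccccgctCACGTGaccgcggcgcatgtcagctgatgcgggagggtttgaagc
Atp6v0b, chr4:117887330-117887429, minus strand: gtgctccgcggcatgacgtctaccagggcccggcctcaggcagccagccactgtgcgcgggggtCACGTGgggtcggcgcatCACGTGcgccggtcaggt
Of the 14 genes with the E-box, 12 had at least 1 FPKM in either genotype on Day 4, and 4 of these were at least 2-fold higher, 2 at least 2-fold lower and 6 neither. Of the 23 genes whose promoter window lacked it, 8 were higher, 3 lower and 12 neither. Of all genes 25.6% were higher and 26.1% lower on that day. No difference between promoters with and without the E-box was read from these Day 4 counts. On Day 0, 13 genes with the E-box had at least 1 FPKM in either genotype, and 3 were higher, 3 lower and 7 neither. Of the 23 without it 1 was higher, 0 lower and 22 neither, while of all genes 13.5% were higher and 16.1% lower. The contrast on Day 0 was not tested. A match describes these letters in this window and does not show binding.

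Differences between genotypes are given as log2 fold changes of *Tfeb* ΔIEC over *Tfeb* flox/flox on (FPKM + 1), a scale on which low genes differ less than in their FPKM. A gene was called higher or lower where this difference was at least 2-fold, among genes with at least 1 FPKM in either genotype. On Day 0, before DSS, 42 of the 43 genes passed that filter. Of these, 6 were called higher (14.3%) and 3 lower (7.14%), against 13.5% and 16.1% of all genes tested. Their median log2 fold change was 0.26, against 0.06 for all genes. On Day 4, 41 genes passed, 15 were called higher (36.6%) and 6 lower (14.6%), against 25.6% and 26.1% of all genes. The median was 0.79, against 0.06. On Day 11, 15 of 41 were called higher and 6 lower, against 26.1% and 25.7% of all genes, with a median of 0.77 against 0.08.

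The filter itself favours genes that differ. On Day 4, 8 genes passed through *Tfeb* ΔIEC animals alone and 2 through *Tfeb* flox/flox animals alone. Of the former, *Lipa*, *Man2b1*, *Ppt1*, *Atp6v0a1*, *Atp6v1c1* and *Tmem55b* were called higher. The latter, *Igf2r* and *Npc1*, were called lower. Over all 43 genes without a filter the median was 0.74, and the counts could not change, since a gene under 1 FPKM in both genotypes cannot reach 2-fold on this scale. The sum of all FPKM values on Day 4 was 1464720 for *Tfeb* flox/flox and 820344 for *Tfeb* ΔIEC animals. Division of each group by its sum moved the median of all genes on that day from 0.06 to 0.66, and the lysosomal genes then counted 25 higher and 2 lower (61% and 4.88%, against 40.5% and 15.2% of all genes). Centred on the median of all genes, they counted 15 and 6, against 24% and 27.1% of all genes, with a median of 0.73. The direction of all 21 called genes of Day 4 was the same under every scaling, pseudocount and length correction tried, and the call itself was kept throughout for 7 of the 15 higher and 1 of the 6 lower genes. With a pseudocount of 5, which shrinks the differences of low genes most, the other 8 higher genes were under 2-fold, from 0.56 (*Ppt1* and *Tmem55b*) to 0.98 (*Atp6v1c1*).

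**Figure D1:**
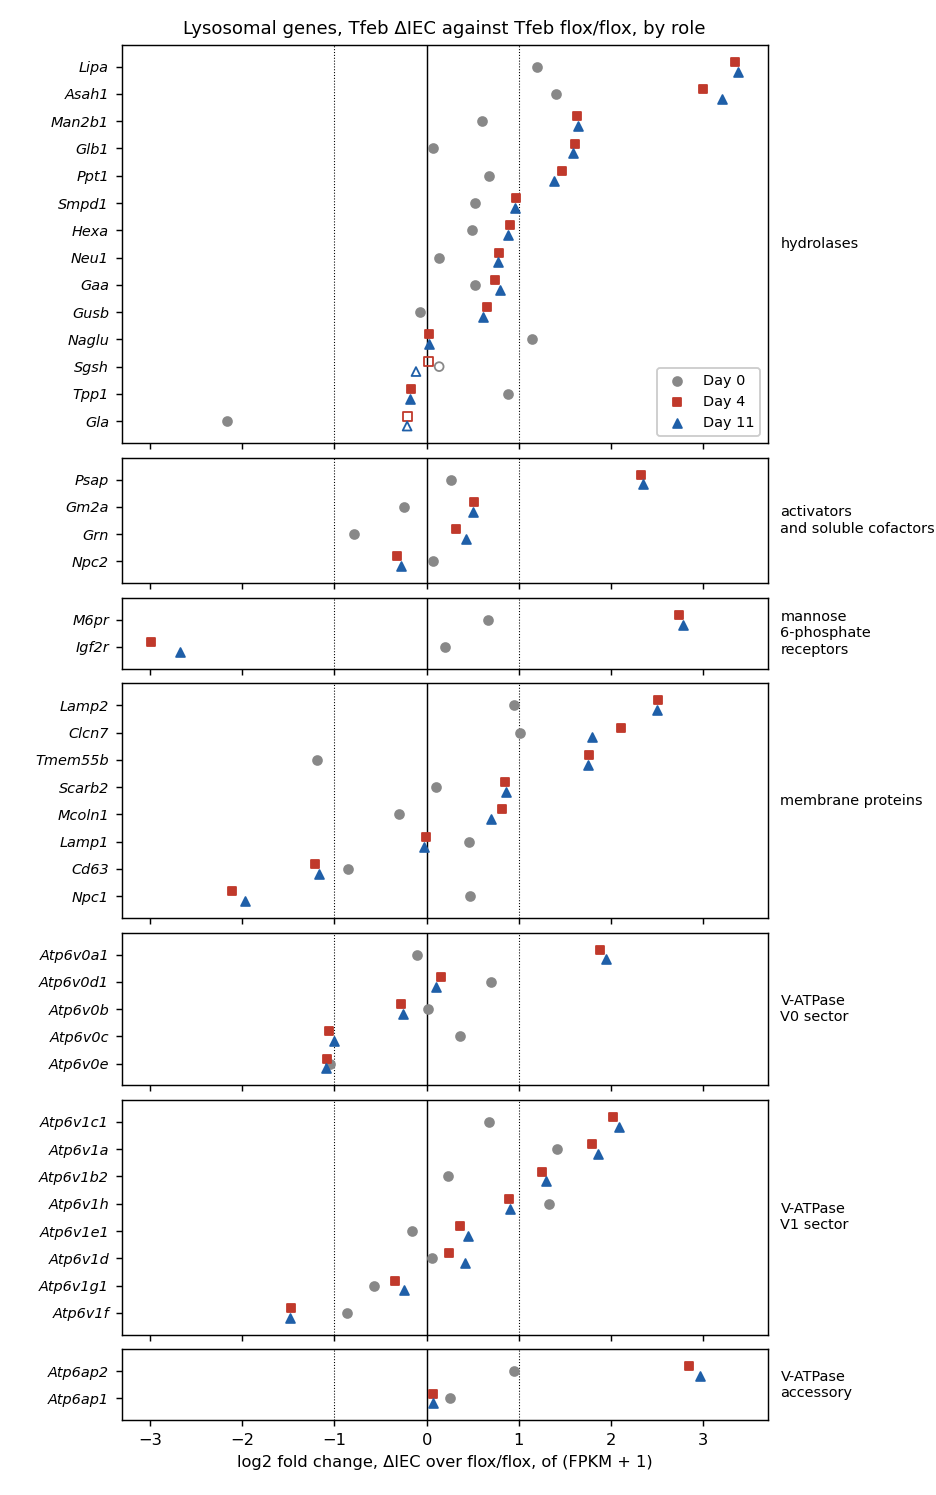
Each row is 1 of the 43 genes, grouped by role, and the horizontal axis is the log2 fold change of (FPKM + 1), *Tfeb* ΔIEC over *Tfeb* flox/flox. Circles are Day 0, squares Day 4 and triangles Day 11, open where neither genotype reached 1 FPKM, and dotted lines mark 2-fold; each symbol is a pair of pooled values without error. Squares and triangles nearly coincide, and *Lipa* (3.35 on Day 4) and *Igf2r* (-2.99) are the extremes of that day.

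Among the hydrolases, 5 of the 12 past the filter were called higher on Day 4 (41.7%) and 0 lower, against 25.6% and 26.1% of all genes. *Lipa* (chr19:34492318-34527474), the acid lipase that releases cholesterol and fatty acids from lipoprotein lipids, had the largest log2 fold change of the 43 genes on Day 4 (3.35). It was at 4.03 FPKM in controls and 10.6 in *Tfeb* ΔIEC animals on Day 0, at 0.883 and 18.2 on Day 4, and at 0.880 and 18.6 on Day 11. *Tfeb* ΔIEC animals were thus above controls on each day, 2.62-fold on Day 0 and 20.6-fold on Day 4. The Day 0 log2 fold change of 1.20 was 0.91 without the trend of all genes with transcript length and 0.79 with a pseudocount of 5, no longer past 2-fold. *Asah1* (chr8:41340197-41374773), the acid ceramidase, was at 11.3 and 31.5 FPKM on Day 0, 6.62 and 59.7 on Day 4, and 4.90 and 53.5 on Day 11. Its log2 fold changes were 1.40, 2.99 and 3.21, and it was called higher on each day, also without the length trend (1.08 on Day 0 and 2.24 on Day 4).

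The other 3 hydrolases called higher on Day 4 were not called on Day 0. *Man2b1*, the acid α-mannosidase of glycoprotein breakdown, was at 3.88 and 6.37 FPKM on Day 0, 0.637 and 4.06 on Day 4, and 0.677 and 4.22 on Day 11. *Ppt1*, which removes palmitate from proteins, was at 3.04 and 5.45, then 0.477 and 3.07, then 0.415 and 2.69. *Glb1*, the acid β-galactosidase, was at 11.1 and 11.7, then 2.23 and 8.87, then 2.20 and 8.60. In all 3 the levels of the genotypes lay within 2-fold of each other on Day 0, and the level of the *Tfeb* flox/flox group was lower on Days 4 and 11 than on Day 0. None of these 3 kept the Day 4 call with a pseudocount of 5, at 0.69 for *Man2b1*, 0.56 for *Ppt1* and 0.94 for *Glb1*, and *Man2b1* was also under 2-fold without the length trend (0.95).

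*Naglu*, an enzyme of heparan sulfate breakdown, was called higher on Day 0 alone, at 1.33 and 4.16 FPKM, and was at 3.58 and 3.66 on Day 4 and 3.33 and 3.40 on Day 11. Its Day 0 log2 fold change of 1.15 was 0.87 without the length trend and 0.53 with a pseudocount of 5, no longer past 2-fold. *Gla*, the α-galactosidase that degrades globotriaosylceramide, was at 4.03 and 0.124 FPKM on Day 0, a log2 fold change of -2.16 that was -0.82 with a pseudocount of 5. On Days 4 and 11 it was at 0.158 in controls and listed at 0 in *Tfeb* ΔIEC animals, under the filter. *Sgsh*, another heparan sulfate enzyme, stayed under 1 FPKM in every group, between 0.547 and 0.860. The remaining 6 hydrolases, *Hexa*, *Smpd1*, *Gaa*, *Neu1*, *Gusb* and *Tpp1*, were called on no day. *Hexa*, the α subunit of β-hexosaminidase and the most abundant hydrolase in both genotypes on Day 0, was at 28.7 and 40.8 FPKM on Day 0 and at 21.3 and 40.7 on Day 4. Of its exonic bases 12.8% are shared with other genes, chiefly *Tmem202*, as are 21.6% of those of *Sgsh*, chiefly with *Card14*. *Smpd1*, the acid sphingomyelinase, lay just under the 2-fold limit on Day 4, with a log2 fold change of 0.97 (0.772 and 2.48 FPKM).

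**Figure D2:**
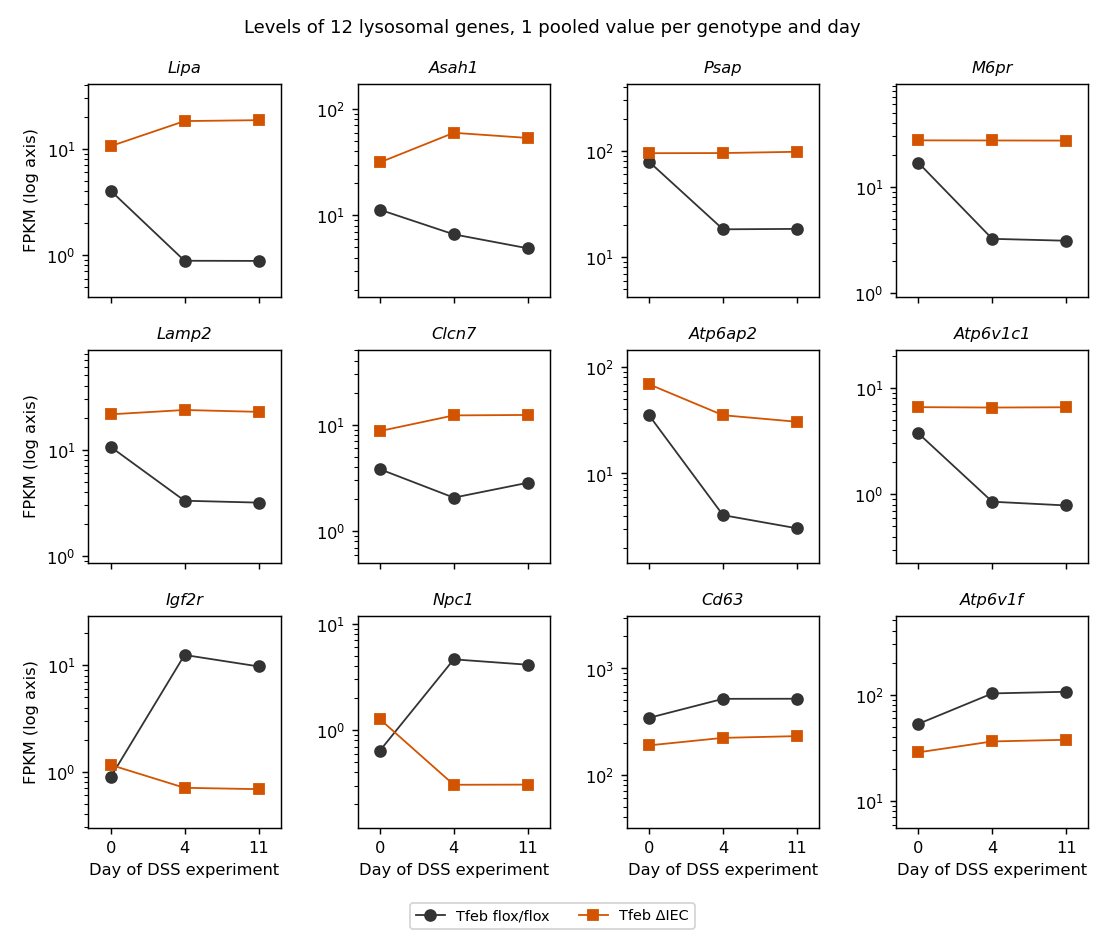
Each panel gives the FPKM of 1 gene on a log axis spanning the same 100-fold range in every panel, on Days 0, 4 and 11, in *Tfeb* flox/flox (circles) and *Tfeb* ΔIEC animals (squares); each point is 1 pooled value of 2 animals, without error. In the upper 8 genes the *Tfeb* ΔIEC value lies above the control on every day, and in *Igf2r* and *Npc1* the order is the other way on Days 4 and 11, with controls at 12.5 and 4.64 FPKM on Day 4.

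*Psap* (chr10:60277627-60302597) encodes prosaposin, the precursor of the saposins that present sphingolipids to their hydrolases. It was at 79.0 and 95.03 FPKM on Day 0, a log2 fold change of 0.26, at 18.3 and 95.3 on Day 4 (2.32), and at 18.4 and 98.0 on Day 11 (2.35). The *Tfeb* ΔIEC level thus differed little between days, and the control level was 4.32-fold lower on Day 4 than on Day 0. *Grn* (progranulin), *Npc2*, which hands cholesterol to NPC1, and *Gm2a*, the activator of ganglioside GM2 breakdown, were called on no day. *Grn* was at 32.5 and 18.5 FPKM on Day 0 and at 19.4 and 24.4 on Day 4. *Npc2* lay between 20.6 and 26.7 FPKM in all groups, and *Gm2a* between 0.844 and 1.73.

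The mannose 6-phosphate receptors, which share the task of sorting hydrolases to lysosomes, were called in opposite directions on Day 4. *M6pr* (chr6:122308720-122317680), the cation-dependent receptor, was at 17.0 and 27.5 FPKM on Day 0, at 3.26 and 27.4 on Day 4, and at 3.13 and 27.4 on Day 11. Its log2 fold changes were 0.67, 2.74 and 2.78. *Igf2r*, the cation-independent receptor, which also clears insulin-like growth factor 2, was at 0.886 and 1.16 FPKM on Day 0. On Day 4 it was at 12.5 in controls and 0.706 in *Tfeb* ΔIEC animals, and on Day 11 at 9.78 and 0.685, with log2 fold changes of 0.19, -2.99 and -2.68. The control value was thus 17.8-fold above that of *Tfeb* ΔIEC animals on Day 4, the largest lower value of the 43 genes. No exonic base of *Igf2r* is shared with another GENCODE gene, but the locus written in the tables (chr17:12682406-12868143) runs past its RefSeq start, and the call was lower under each alternative tried, between -3.97 and -1.62 on Day 4.

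Of the 8 membrane proteins, 3 were called higher (37.5%) and 2 lower (25%) on Day 4, against 25.6% and 26.1% of all genes. *Lamp2*, a heavily glycosylated protein of the lysosomal membrane that is also needed for chaperone-mediated autophagy, was at 10.6 and 21.5 FPKM on Day 0, 3.31 and 23.6 on Day 4, and 3.18 and 22.7 on Day 11. Its Day 0 log2 fold change of 0.95 was just under the limit, and that of Day 4 was 2.51. *Lamp1*, its relative with 4 E-boxes in the promoter shown above, was at 9.41 and 13.3 FPKM on Day 0 and at 17.2 and 17.1 on Day 4, a log2 fold change of -0.01. *Clcn7*, the chloride-proton exchanger, was called higher on each day, at 3.82 and 8.72 FPKM, then 2.06 and 12.2, then 2.84 and 12.4. On Day 0 its log2 fold change of 1.01 was just past the limit and was 0.62 without the length trend.

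*Tmem55b*, a lysosomal membrane protein that recruits a dynein adaptor to lysosomes, was called in opposite directions. It was at 10.6 and 4.11 FPKM on Day 0, a log2 fold change of -1.19. On Days 4 and 11 it was listed at 0 in controls and was at 2.39 and 2.36 in *Tfeb* ΔIEC animals. With a pseudocount of 5 the log2 fold changes were -0.78, 0.56 and 0.56, under 2-fold on each day. No fold is given against 0, and 19.5% of its exonic bases are shared with other genes, chiefly *Apex1* on the opposite strand, whose reads cannot be told apart in libraries without strand. *Npc1*, the membrane protein that exports cholesterol from lysosomes, was at 0.641 and 1.27 FPKM on Day 0, 4.64 and 0.306 on Day 4, and 4.13 and 0.307 on Day 11. Its Day 4 log2 fold change of -2.11 was -0.86 with a pseudocount of 5. *Npc1* and *Igf2r* were the only genes of the 43 that passed the filter through *Tfeb* flox/flox animals alone on Day 4. *Cd63*, a tetraspanin of late endosomes and exosomes, had the highest FPKM of the 43 genes in each group. It was at 343 and 189 FPKM on Day 0, 518 and 223 on Day 4, and 519 and 231 on Day 11, with log2 fold changes of -0.86, -1.22 and -1.16. Controls were above *Tfeb* ΔIEC animals on each day, but after division by the sum the values were -0.38 on Day 4 and -0.33 on Day 11, no longer past 2-fold. *Mcoln1*, the calcium channel of the lysosome, and *Scarb2*, the transport receptor of glucocerebrosidase, were called on no day, with Day 4 values of 0.82 and 0.85.

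The V-ATPase genes did not share a direction. Of the 15, 2 were called higher (13.3%) and 1 lower (6.67%) on Day 0, against 13.5% and 16.1% of all genes. On Day 4, 5 were called higher (33.3%) and 3 lower (20%), against 25.6% and 26.1%, with a median of 0.25. In the V0 sector *Atp6v0a1*, the membrane subunit that couples proton passage to rotation, was at 2.75 and 2.49 FPKM on Day 0, 0.415 and 4.20 on Day 4, and 0.422 and 4.50 on Day 11, with a Day 4 log2 fold change of 1.88 that was 0.77 with a pseudocount of 5. *Atp6v0c*, the proteolipid of the rotating ring, was at 18.8 and 24.5 FPKM, then 61.7 and 29.2, then 59.8 and 29.2. *Atp6v0e*, a small membrane subunit, was at 66.7 and 31.7 FPKM, then 102 and 47.6, then 102 and 47.5, and was called lower on each day. After division by the sum the Day 4 values of *Atp6v0c* and *Atp6v0e* were -0.24 and -0.25, no longer past 2-fold. Without the length trend *Atp6v0e* was at -0.51 on Day 0 and -0.08 on Day 4. *Atp6v0b* and *Atp6v0d1* were called on no day.

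In the V1 sector 3 of 8 genes were called higher on Day 4 (37.5%) and 1 lower (12.5%), against 25.6% and 26.1% of all genes. *Atp6v1a*, the catalytic subunit that hydrolyses ATP, was at 3.17 and 10.1 FPKM on Day 0, 1.05 and 6.08 on Day 4, and 0.957 and 6.11 on Day 11, and was called higher on each day, but on none with a pseudocount of 5 (0.89, 0.87 and 0.90). *Atp6v1b2*, its partner in the catalytic ring, was at 8.17 and 9.76, then 2.72 and 7.88, then 2.76 and 8.24. Its Day 4 log2 fold change of 1.25 was 0.51 without the length trend and 0.74 with a pseudocount of 5, no longer past 2-fold. *Atp6v1c1*, a subunit of the stator, was at 3.74 and 6.59, then 0.850 and 6.54, then 0.784 and 6.57. The *Tfeb* ΔIEC level of *Atp6v1c1* was thus nearly the same on the 3 days. *Atp6v1h*, which regulates ATP hydrolysis, was called higher on Day 0 alone, at 7.10 and 19.3 FPKM, and was at 7.60 and 14.96 on Day 4 and 7.57 and 15.03 on Day 11. *Atp6v1f* was called lower on Days 4 and 11, at 53.1 and 28.7 FPKM on Day 0, 103 and 36.3 on Day 4, and 107 and 37.7 on Day 11. After division by the sum its Day 4 value was -0.65, no longer past 2-fold. *Atp6v1d*, *Atp6v1e1* and *Atp6v1g1* were called on no day.

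Since these subunits assemble in 1 complex, the spread of their mRNA levels within a group was also read. The highest FPKM of the 8 V1 genes was 16.7-fold above the lowest in controls and 4.90-fold in *Tfeb* ΔIEC animals on Day 0. On Day 4 it was 121-fold above in controls, from *Atp6v1c1* at 0.850 to *Atp6v1f* at 103, and 6.53-fold in *Tfeb* ΔIEC animals. For the 5 V0 genes the spread was 24.2-fold and 19.9-fold on Day 0, and 245-fold and 12.4-fold on Day 4. These are ratios of FPKM without a pseudocount. The lowest control values of Day 4, 0.850 for *Atp6v1c1* and 0.415 for *Atp6v0a1*, rest on an unknown number of reads. The highest were of short genes, *Atp6v1f* (754.5 nt) and *Atp6v0e* (772), and the lowest of longer ones, *Atp6v1c1* (2071) and *Atp6v0a1* (3890). The part of length in these spreads was not tested. The accessory genes differed 1.73-fold and 2.81-fold on Day 0, and 4.30-fold and 1.92-fold on Day 4. Of the accessory subunits, *Atp6ap2*, the (pro)renin receptor, was at 35.3 and 69.0 FPKM on Day 0, 4.06 and 35.3 on Day 4, and 3.05 and 30.7 on Day 11. Its log2 fold changes were 0.95, 2.85 and 2.97, while *Atp6ap1* was at 17.4 and 18.4 FPKM on Day 4 and was called on no day.

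Over the 3 days, 4 genes were called higher on each day (*Asah1*, *Lipa*, *Clcn7* and *Atp6v1a*, of which only *Asah1* kept the Day 0 call under every scaling, pseudocount and length correction tried), 10 on Days 4 and 11 but not on Day 0, and 5 were called lower on Days 4 and 11 but not on Day 0. A further 18 genes passed the filter on each day and were called on none. Of the 42 genes past the filter on any day, these 4 patterns held 9.52%, 23.8%, 11.9% and 42.9% in that order, against 3.76%, 13.4%, 8.85% and 29.5% of all genes. Of the 18, 13 had a Day 4 log2 fold change above 0 (72.2%, against 55.7% of all genes that passed on each day and were called on none), or 10 without the length trend (55.6%, against 43.1%). Their values ran from -0.35 (*Atp6v1g1*) to 0.97 (*Smpd1*).

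Between Day 0 and Day 4 the groups of each genotype were also compared, across separately scaled tables and without a test. In controls 42 of the genes had at least 1 FPKM on either day, of which 3 were at least 2-fold higher on Day 4 (7.14%) and 16 at least 2-fold lower (38.1%), against 17.5% and 25.7% of all genes. In *Tfeb* ΔIEC animals 0 of 41 were higher and 0 lower, against 9.26% and 15.6% of all genes. The median log2 change of the lysosomal genes was -0.67 in *Tfeb* flox/flox animals, against -0.20 for all genes. In *Tfeb* ΔIEC animals it was -0.0046, against -0.20. With each group divided by its sum, 3 genes were higher (7.14%) and 21 lower (50%) in *Tfeb* flox/flox animals, against 9.37% and 35.9% of all genes. On that scale 1 was higher and 0 lower in *Tfeb* ΔIEC animals, against 12.2% and 12.7%. The Day 4 control group enters this comparison and that between genotypes, so the 2 are not independent. Among genes with at least 1 FPKM in controls on both days, *Atp6ap2* (8.70-fold), *M6pr* (5.20-fold) and *Glb1* (4.98-fold) were lowered most on Day 4. With Day 4 values under 1 FPKM, *Gla* was 25.5-fold, *Atp6v0a1* 6.63-fold, *Ppt1* 6.39-fold and *Man2b1* 6.09-fold lower, and *Tmem55b* was listed at 0. In controls *Igf2r* was 14.1-fold, *Npc1* 7.24-fold and *Atp6v0c* 3.27-fold higher. *Igf2r* and *Npc1* were under 1 FPKM there on Day 0.

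**Figure D3:**
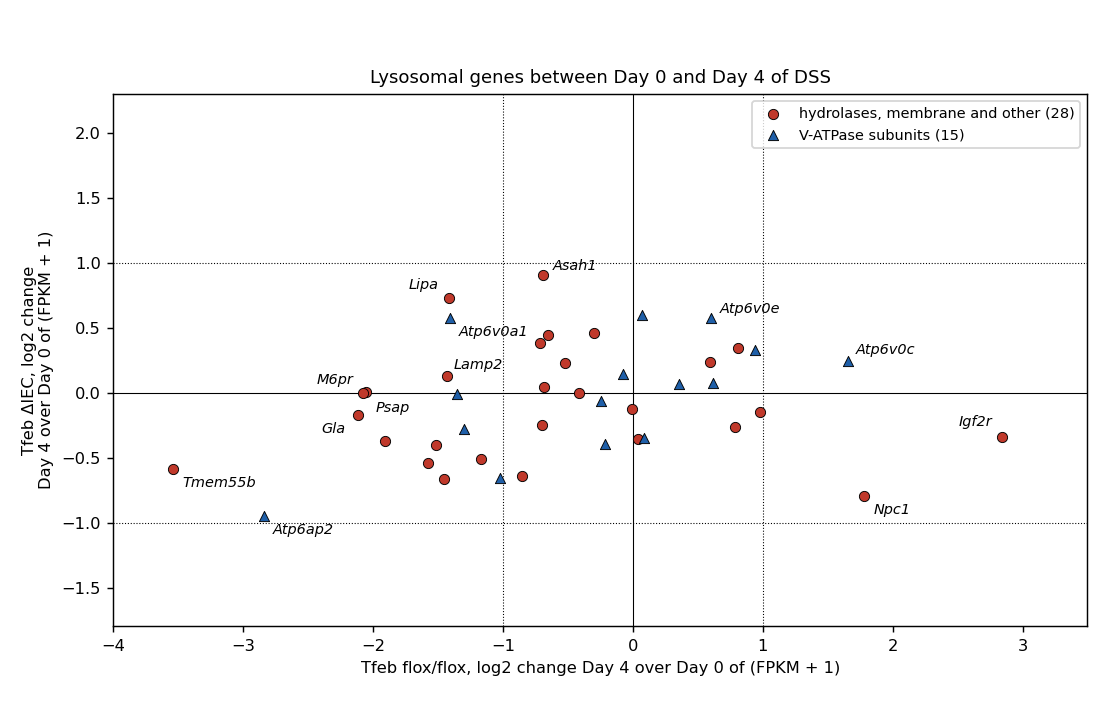
Each point is 1 of the 43 genes; the axes give the log2 change of (FPKM + 1) from Day 0 to Day 4 in *Tfeb* flox/flox (horizontal) and *Tfeb* ΔIEC animals (vertical), from 1 pooled value per group, with V-ATPase subunits as triangles and dotted lines at 2-fold. The points spread from -3.54 (*Tmem55b*) to 2.84 (*Igf2r*) along the horizontal axis and from -0.95 (*Atp6ap2*) to 0.90 (*Asah1*) along the vertical axis.

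Transcript length moved with the difference between genotypes. Over all genes on Day 4, the median log2 fold change was -1.29 in the bin of transcripts of 485 to 789 nt and 0.64 in that of 2326 to 2827 nt. Of the genes called lower on Day 4, *Atp6v1f* (754.5 nt, the median of its transcripts), *Atp6v0e* (772), *Atp6v0c* (989.5) and *Cd63* (1063) are short, and *Npc1* (5224) and *Igf2r* (8887) are long. In *Atp6v1f*, *Cd63* and *Atp6v0c*, 88.8%, 88.9% and 89.2% of the 50-base sequences occur in no other gene, so part of their reads may have been shared with copies elsewhere. The median length of the 15 genes called higher was 2654 nt. With the running median over length subtracted, 13 genes were past 2-fold in the higher and 2 in the lower direction on Day 4 (31.7% and 4.88%, against 20.3% and 20.7% of all genes), with a median of 0.35. On Day 0 they were 3 and 3 (7.14% each, against 11.6% each), with a median of 0.02. *Npc1* and *Igf2r* were the 2 lower genes, at -2.62 and -3.15. The part of length in the differences was not tested further.

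**Figure D4:**
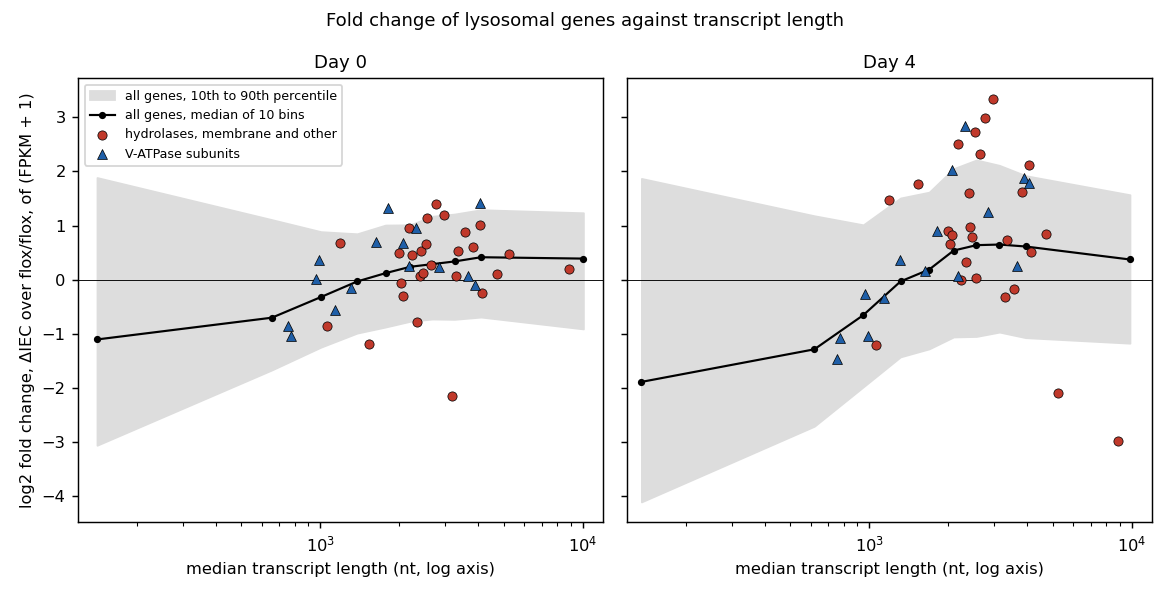
The log2 fold change of (FPKM + 1), *Tfeb* ΔIEC over *Tfeb* flox/flox, is plotted against the median transcript length in nt (log axis) on Day 0 (left) and Day 4 (right). The line and the grey band give the median and the 10th to 90th percentile of all genes in 10 bins of equal size, drawn at the middle of each bin on the log axis, and the symbols are single lysosomal genes past the filter. The short V-ATPase subunits lie at lengths where the line is below 0 but not at its lowest, while *Igf2r* and *Npc1* lie below the band on Day 4.

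Markers of the cells themselves moved too. Of the 9 epithelial markers, 5 were called higher on Day 4 (55.6%) and 0 lower, against 25.6% and 26.1% of all genes, and their summed level was 29153 FPKM in controls and 33982 in *Tfeb* ΔIEC animals, most of it *Car1*. Among them *Krt20*, a keratin of differentiated surface cells, was at 101 and 931 FPKM, *Slc26a3*, the chloride-bicarbonate exchanger of absorptive colonocytes, at 33.3 and 271, and *Vil1*, a brush border protein, at 30.6 and 224. On Day 0, 2 of the 9 markers were called higher (22.2%) and 0 lower, against 13.5% and 16.1% of all genes. The level was above that of controls for 5 of the 9 and below it for 4. *Krt20* was then at 168 and 101, *Slc26a3* at 85.8 and 112, and *Vil1* at 85.4 and 123. The immune markers summed to 5.90 and 8.53 FPKM on Day 4, with 7 and 3 of the 12 genes listed at 0. Of the immune markers past the filter, *C1qb* was at 0 and 3.26 and *S100a8* at 0 and 1.15, while *C1qa* was at 1.96 and 0.663 and *Lyz2* at 2.88 and 1.77. The macrophage marker *Cd68*, itself a lysosomal protein, was listed at 0 in every group. The part of cell composition in these differences was not tested, and in bulk RNA fewer cells of a type and less RNA per cell cannot be told apart.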

How the data were processed

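RNA-seq data of colonic epithelial cells of 12 mice were used, in 6 groups of 2 set by the genotype and day in the labels. cDNA was made by the authors with a variation of SmartSeq2 and sequenced in pairs on a MiSeq. The reads were aligned to mm10 (TopHat2 2.0.14 with Bowtie), and Cuffdiff 2.1.1 was run for each day (versions from the submitters' processing notes). Each of the 3 deposited tables holds 1 FPKM value per gene and genotype, which the authors made from both animals and scaled within that day only. The tables also hold the authors' log2 fold change, test statistic, p-value, q-value and status, none of which were used. Values per animal were not analysed here, and the depth is unknown.

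Tables were joined by Ensembl identifier. Log2 fold changes used a pseudocount of 1 FPKM and genes that reached 1 FPKM in a genotype of that day, and called means at least 2-fold. No test was run. Transcript lengths are medians over GENCODE M21 basic transcripts (47218 of 47632 genes matched), and the length trend was a running median over 500 genes. Overlaps and shared 50-base sequences were counted over the same annotation. The immune, stromal and epithelial markers and 3 lists of other lysosomal genes were written out by gene name. All 43 genes could be named, values in every group being given for the 24 called on any day. Of other lists up to 3 genes with the largest Day 4 difference were named. The result of 1 gene under this rule is not reported here. *Epcam*, *Car1*, *Adgre1*, *S100a9*, *Lyz2* and *Cd68* were named after their values were seen. The members and lists were chosen with earlier results of these data known.

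Alternatives were pseudocounts of 0.1 and 5, no filter or 5 FPKM, division by the sum, centring on the median of all genes, subtraction of the length trend, and a 4-fold threshold. Computations used Python 3.11.15, numpy 2.4.6, pandas 2.3.3 and matplotlib 3.10.9, and were tested on simulated data.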

Additional observations from a re-analysis of the deposited data

Results flagged for a closer look

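*Tmem55b* stood out because its difference between genotypes had opposite signs before and during DSS, with log2 fold changes of -1.19 on Day 0, 1.76 on Day 4 and 1.75 on Day 11. Each is a difference between pooled values, and the difference between days was not tested. With a pseudocount of 5 they were -0.78, 0.56 and 0.56, under 2-fold on each day. The gene was listed at 0 in controls on Days 4 and 11, and 83.6% of its 50-base sequences occur in no other gene.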

How the results depend on the processing

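No paired analysis was possible because the tables hold 1 pooled value per genotype and day, and for the same reason no animal could be left out in turn. All genes called among the 43 kept their direction under every alternative run. Counts moved by more than 1.5 times as follows. With a pseudocount of 5, 2 genes were called higher and 0 lower on Day 0, 7 higher on Day 4 and 8 higher on Day 11, against 2.51%, 6.24%, 9.33% and 9.28% of all genes. Division by the sum gave 25 higher and 2 lower on Day 4, and 26 and 2 on Day 11, against 40.5% and 15.2%, and 41% and 14.9% of all genes. Without the length trend 3 were higher on Day 0, with a median of 0.0233 in place of 0.26, and 2 were lower on Day 4 and 2 on Day 11, against 11.6%, 20.7% and 21.2% of all genes. At 4-fold 0 were higher and 1 lower on Day 0, 8 and 2 on Day 4, and 7 and 1 on Day 11, against 2.09% and 3.35%, 7.36% and 10.3%, and 7.46% and 10.2% of all genes. Without a filter the counts could not change. A filter at 5 FPKM, a pseudocount of 0.1 and centring kept all counts within 1.5 times. Medians on Days 4 and 11 were above 0 under all alternatives, between 0.31 and 1.40. The number of reads behind low values such as 0.883 FPKM for *Lipa* in controls is unknown, so the size of the largest folds is uncertain.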

Other observations

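Of 50 other lysosomal genes in 3 lists, 35 had at least 1 FPKM in either genotype on Day 4, of which 14 were at least 2-fold higher and 3 at least 2-fold lower in *Tfeb* ΔIEC animals, against 25.6% and 26.1% of all genes. Among the 19 enzymes past the filter, 8 were higher and 1 lower. *Scpep1*, a serine carboxypeptidase, was at 0.601 FPKM in controls and 10.3 in *Tfeb* ΔIEC animals on Day 4. *Acp2*, an acid phosphatase, was at 1.26 and 9.29 FPKM on Day 4 and at 1.21 and 2.18 on Day 11. Among 13 other membrane proteins past the filter, 4 were higher and 2 lower. *Cd164*, a sialomucin, was at 4.30 and 53.2 FPKM on Day 4, *Slc17a5*, the sialic acid exporter, at 0.194 and 5.35, and *Tmem192* at 5.54 and 0.299.

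Of 10 genes for other isoforms of V-ATPase subunits, 3 reached 1 FPKM in either genotype on Day 4. *Atp6v0a2*, the Golgi and endosomal form of the V0 a subunit, was at 8.23 and 16.7 FPKM on Day 0, 4.72 and 166 on Day 4, and 4.73 and 165 on Day 11. This Day 4 log2 fold change of 4.87 was above that of any of the 43 genes. Of the exonic bases of *Atp6v0a2* 9.86% are shared with other genes, chiefly *4930404A12Rik* on the opposite strand. *Tcirg1*, the a3 form known from osteoclasts, was at 7.79 and 3.79 FPKM on Day 0, 2.58 and 7.08 on Day 4, and 2.78 and 5.09 on Day 11, and *Atp6v0e2* was at 1.42 and 3.45 on Day 4.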
